A study of Mus musculus with 12 samples.

Results

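Chemokine receptors of gut leukocytes were followed in the ileum of mice given a Western diet or its components. The 9 receptors, Ccr7, Cxcr5, Cxcr4, Ccr9, Ccr6, Cx3cr1, Cxcr3, Ccr2 and Cxcr6, were taken by gene name from a table of 44205 genes. All 9 had a row. Gene expression was read by RNA sequencing of ileum from 12 C57BL/6 mice, in 4 diet groups of 3 mice. The groups were high-fat diet with a sugar drink (HF_Sugar, the Western diet or WD), high-fat diet with plain water (HF), normal-fat diet with the sugar drink (NF_Sugar), and normal-fat diet with unsweetened water (NF, called the ND). Fat gave 60% of the energy in the high-fat diet, and the sugar drink held 23% w/v. All mice were of the same strain with no altered gene named, started their diet at 6 weeks of age, and were 16 weeks old after 10 weeks of feeding. Each RNA came from the ileum of 1 mouse, so the replicates are animals. The comparisons ask whether fat and sugar together, or either alone, go with another receptor level.

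Values are RPKM, read counts scaled by exon length and by sequencing depth, so that a comparison of levels between genes depends on the exon length used. The steps between low RPKM values gave depths of 15.3 to 39.0 M reads per library, of which 73.3% to 81.4% fell in genes. Principal component 1, with 39.7% of the variance, set 4 libraries apart, 1 in each group (HF_Sugar 2, HF 2, NF_Sugar 1 and NF 2). Ileal enterocyte markers, headed by the bile acid binding protein Fabp6 and the bile acid transporter Slc10a2, summed to 4650 to 12700 RPKM, and all 6 passed the filter for testing. The tissue was unsorted ileum, which the paper names as terminal ileum for its comparison of ND and WD mice. Fewer cells of a type and less RNA per cell therefore cannot be told apart for any receptor. Whether lymphoid follicles were sampled equally is not stated in the sources used here.

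Chemokines are small secreted proteins that steer leukocytes, and their receptors are membrane proteins that signal through inhibitory G proteins. Ccr7 and Cxcr5 bring lymphocytes and mature dendritic cells into lymphoid tissue, where Ccr7 reads Ccl19 and Ccl21 in the T cell zone and Cxcr5 reads Cxcl13 in the B cell follicle. Ccr9, Ccr6, Cxcr6 and Cx3cr1 place cells in or near the epithelium and the lamina propria, whereas Cxcr3 and Ccr2 recruit effector T cells and monocytes into inflamed tissue.

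On build GRCm38, 5 of the 9 genes lie on chromosome 9. Cxcr5 is at 44511787 to 44561877 and Cx3cr1 at 119901616 to 120069879, both on the minus strand. Ccr9 (123678439 to 123784330), Cxcr6 (123806475 to 123811760) and Ccr2 (124101950 to 124113557) share a stretch of 435 kb on the plus strand. The others are Cxcr4 on chromosome 1 (128588199 to 128592293, minus strand), Ccr7 on chromosome 11 (99144196 to 99155077, minus), Ccr6 on chromosome 17 (8236043 to 8257141, plus) and Cxcr3 on the X chromosome (101731535 to 101734269, minus). In the annotation, exons of Cxcr5 overlap Bcl9l and exons of Ccr9 overlap Slc6a20a, both on the opposite strand. Exons of Ccr9 also overlap Gm17200 on the same strand, which averaged 0.882 RPKM, and exons of Cx3cr1 overlap Gm33858 on the opposite strand, which was not analysed here. Reads shared by Ccr9 and Gm17200 cannot be told apart by strand. Slc6a20a averaged 36.8 RPKM over the 12 libraries, far above Ccr9. Whether reads were counted by strand is not stated in the sources used here, so reads of the other pairs may not be told apart.

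Promoter sequences were taken from RefSeq (GRCm38.p6) as the 250 bases before a transcription start. Those of Cxcr4 and Ccr6 are shown because these receptors are among the 4 whose values in HF_Sugar ileum lay above all NF values. Capitals mark a match to TATAAA, to a loose NF-kappaB motif (GGG, any 5 bases, then CC) or to GAGGAA (a PU.1 core), each searched on both strands.
Cxcr4, chr1:128592300-128592549, minus strand: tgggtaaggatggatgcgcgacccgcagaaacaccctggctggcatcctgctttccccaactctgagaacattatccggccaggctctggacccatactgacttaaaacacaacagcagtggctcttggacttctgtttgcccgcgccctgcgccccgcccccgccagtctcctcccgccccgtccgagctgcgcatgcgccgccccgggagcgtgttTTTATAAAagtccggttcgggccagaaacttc
Ccr6, first start, chr17:8235793-8236042, plus strand: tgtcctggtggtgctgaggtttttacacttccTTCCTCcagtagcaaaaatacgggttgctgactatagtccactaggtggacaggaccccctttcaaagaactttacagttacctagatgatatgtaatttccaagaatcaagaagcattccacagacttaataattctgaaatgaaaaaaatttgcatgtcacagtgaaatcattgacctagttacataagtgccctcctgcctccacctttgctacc
Ccr6, second start, chr17:8242276-8242525, plus strand: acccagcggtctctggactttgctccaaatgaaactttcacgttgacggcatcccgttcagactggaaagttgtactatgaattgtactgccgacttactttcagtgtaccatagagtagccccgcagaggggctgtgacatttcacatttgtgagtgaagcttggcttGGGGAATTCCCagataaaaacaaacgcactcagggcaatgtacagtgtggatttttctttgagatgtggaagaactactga
In the Cxcr4 sequence TATAAA began 30 bases before the start, with an overlapping match on the other strand at 32 bases. In the second Ccr6 sequence the NF-kappaB motif matched at 81 and 80 bases on the gene's strand and at 80 bases on the other, all within the same run of capitals. In the first Ccr6 sequence GAGGAA matched on the other strand at 218 bases. Of 27025 promoter windows of the same length, 13% held TATAAA, 45.4% held the NF-kappaB motif and 23.1% held GAGGAA, and a match is only a run of letters, not a site shown to be bound.

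Receptor levels in the ileum were low. Cxcr4, the receptor for Cxcl12 that holds B cells, plasma cells and progenitors in their niches, was highest at 3.61 ± 1.35 RPKM (SD over 12 libraries) and stood above the next receptor in 12 of 12 libraries. Ccr7 followed at 2.24 ± 1.02 and Cxcr5 at 2.09 ± 0.904, and their order was not separable, with Ccr7 above Cxcr5 in 6 of 12 libraries. Cx3cr1, carried by resident macrophages, was at 1.12 ± 0.301 and stood below Cxcr5 in 10 libraries. Cxcr6 at 0.931 ± 0.321, Cxcr3 at 0.744 ± 0.268 and Ccr6 at 0.563 ± 0.299 followed, with libraries in either order, since Cx3cr1 exceeded Cxcr6 in 9 libraries, Cxcr6 exceeded Cxcr3 in 8, and Cxcr3 exceeded Ccr6 in 7. Ccr9, the gut-homing receptor for Ccl25, and Ccr2, the monocyte receptor, were lowest at 0.285 ± 0.0672 and 0.2 ± 0.0889 RPKM. Their place depends on the exon length used, annotated as 10260 bases for Ccr9 and 6760 bases for Ccr2, against 2320 bases for Ccr6. The read steps gave 6760 bases for Ccr2 and 2028 bases for Ccr6, but no length for Ccr9. Reckoned with its annotated length, Ccr9 would have 38.9 to 104 reads per library, which are not recovered reads. Ccr6 had 9 to 49 recovered reads. Cxcr4 was above 80.8% of all genes in mean RPKM and Ccr2 above 55.1%. Genes were tested if they reached 0.5 RPKM in at least 3 libraries, which 7 of the 9 receptors did. Ccr9 and Ccr2 reached 0.5 RPKM in 0 libraries, and Ccr6 did in 7, of which none was an NF library.

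**Figure D1:**
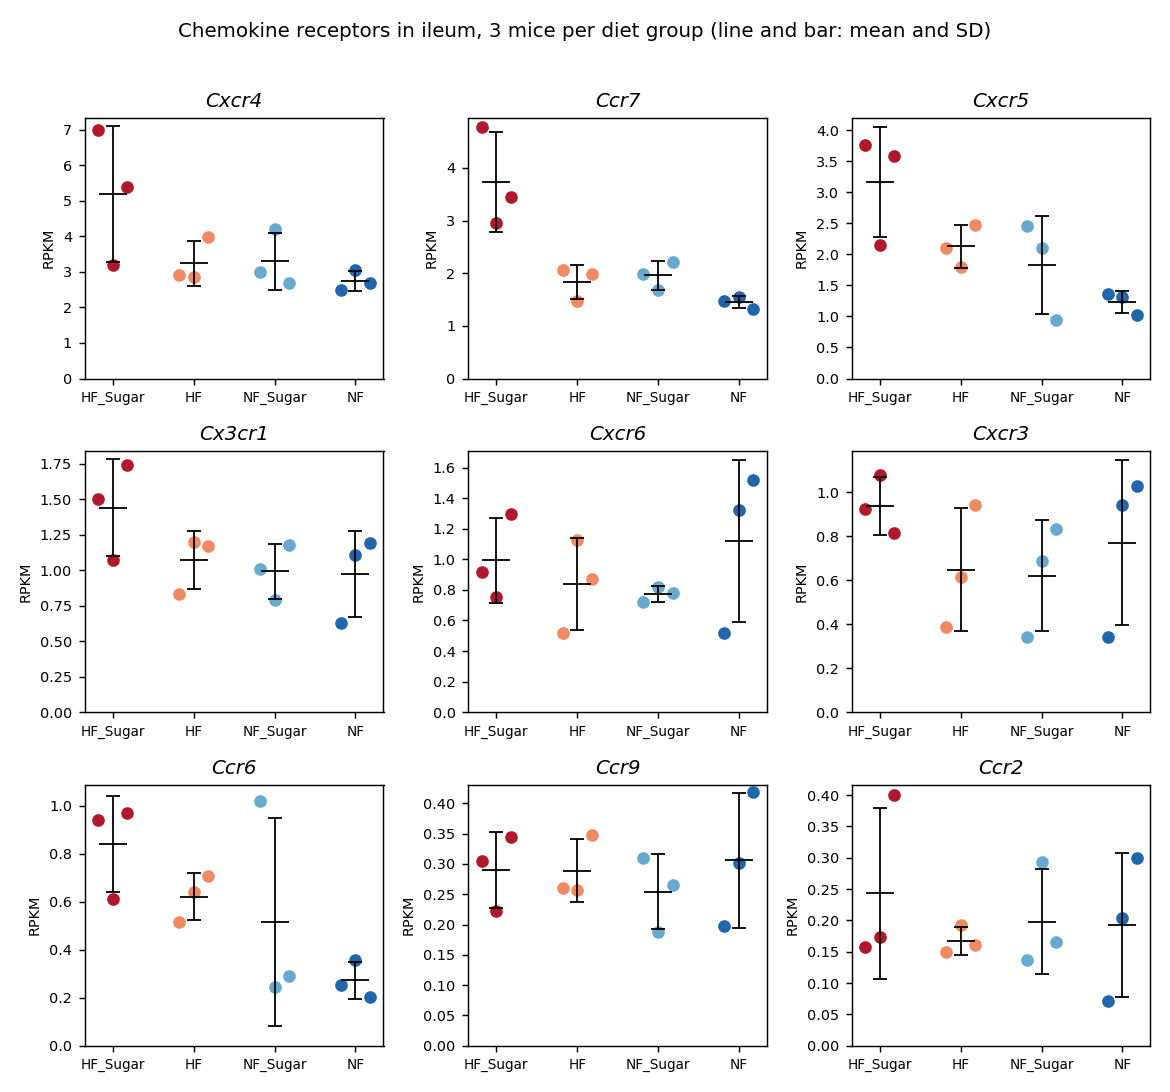
RPKM (vertical axes) of the 9 receptors in 4 diet groups (horizontal axes), ordered by mean level, with 1 point per mouse and the mean and SD of 3 mice in black. The 3 HF_Sugar points of Ccr7 lie between 2.96 and 4.78 RPKM, above all points of the other groups.

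Ccr7, which guides mature dendritic cells and naive lymphocytes toward lymph nodes, had the largest HF_Sugar minus NF difference of the 7 tested receptors on the log2(RPKM + 1) scale, while Ccr6 had a larger ratio of means and, with a pseudocount of 0.1, a larger log2 difference (1.29 for Ccr6 and 1.24 for Ccr7). It had 4.78, 2.96 and 3.45 RPKM in the 3 HF_Sugar mice, against 1.48, 1.54 and 1.32 RPKM in the 3 NF mice. The HF mice had 2.07, 1.47 and 1.98 RPKM and the NF_Sugar mice 1.98, 1.68 and 2.22 RPKM. All HF_Sugar values thus lay above all 9 values of the other groups, and HF values overlapped those of NF. The mean was 3.73 ± 0.942 RPKM in HF_Sugar and 1.45 ± 0.115 RPKM in NF (SD, n = 3 each), a ratio of 2.58. On the log2(RPKM + 1) scale, which understates ratios of low genes, the difference was 0.90 ± 0.16 (SE) with a 95% interval of 0.54 to 1.26 by limma. This was rank 6 of 17662 genes by p, but the adjusted p over all genes was 0.537, and a two-sided exact permutation test gave p = 0.1, the smallest that 3 against 3 mice allow. Ccr7 did not pass the threshold (adjusted p under 0.05) in any comparison.

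Against HF alone, Ccr7 was 0.72 ± 0.16 higher on the log2 scale in HF_Sugar (interval 0.36 to 1.07, limma adjusted p = 0.771), and against NF_Sugar it was 0.64 ± 0.16 higher (interval 0.28 to 1.0, adjusted p = 1). HF and NF_Sugar each differed little from NF, by 0.18 ± 0.16 (interval -0.18 to 0.54) and 0.26 ± 0.16 (interval -0.10 to 0.62). The interaction of fat and sugar for Ccr7 was 0.46 ± 0.23 with an interval of -0.05 to 0.97 (limma adjusted p = 1), so an excess of the combined diet over the sum of its parts was not shown. Without HF_Sugar replicate 1 the interaction was 0.30, and without NF replicate 3 the Ccr7 difference of NF_Sugar from NF was 0.14.

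The Ccr7 values of the HF_Sugar mice had another property that the rest did not share. Turned back into reads through the gene's exon length (1978 bases), Ccr7 gave whole numbers between 63 and 114 in the 9 libraries of the other groups, within 0.1 read. The 3 HF_Sugar libraries gave 213.19, 160.59 and 111.21 reads. Among genes with whole reads in the 9 other libraries, 4 of 5117 (0.0782%) had fractions in all 3 HF_Sugar libraries, namely Ccr7, Tas1r3, Tcf7 and Tnf, whereas HF and NF_Sugar had 1 such gene each and NF had 0 of 5583. How these fractions came about was not tested. Of the other receptors, Cxcr4 had a fraction in HF_Sugar replicate 3 (158.44 reads) and Cx3cr1 in NF replicate 3 (129.15 reads), while Ccr6, Cxcr3, Ccr2 and Cxcr6 gave whole reads throughout. A fraction in 1 or more libraries of a group was not particular to HF_Sugar. Among genes whole in the 9 libraries outside the group, it was found in 0.567% for HF_Sugar and 0.551% for HF. For NF_Sugar it was 0.513% and for NF 0.842%. Cxcr5 and Ccr9 had no common step and were not checked.

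Cxcr5, the receptor by which B cells and follicular helper T cells enter follicles, had 3.77, 2.15 and 3.58 RPKM in HF_Sugar mice, against 1.36, 1.31 and 1.03 RPKM in NF mice. The groups did not overlap, and the means of 3.16 ± 0.887 and 1.23 ± 0.176 RPKM (SD, n = 3 each) stood in a ratio of 2.57. The log2 difference was 0.84 ± 0.23 (interval 0.32 to 1.36), rank 51 by p, with a limma adjusted p of 0.999. HF mice had 2.11, 1.79 and 2.48 RPKM, also all above the NF mice, with a log2 difference of 0.45 ± 0.23 (interval -0.07 to 0.97, adjusted p = 1). NF_Sugar mice spread more widely, with 2.45, 2.11 and 0.94 RPKM, and their lowest value lay below all NF values. Cxcr5 in HF_Sugar was 0.38 ± 0.23 above HF and 0.54 ± 0.23 above NF_Sugar on the log2 scale, with intervals of -0.14 to 0.90 and 0.02 to 1.06 (limma adjusted p = 1 in both), and its interaction of 0.09 ± 0.33 ran from -0.65 to 0.83. Without NF_Sugar replicate 3, the mouse with the least Cxcr5, the difference from NF_Sugar was 0.27.

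Cxcr4 had 7.0, 3.19 and 5.38 RPKM in HF_Sugar mice, against 2.48, 3.04 and 2.68 RPKM in NF mice. The lowest HF_Sugar value was close to the highest NF value, and after scaling of the libraries the groups overlapped. The means were 5.19 ± 1.91 and 2.73 ± 0.28 RPKM, a ratio of 1.90, and the log2 difference was 0.64 ± 0.22 (interval 0.15 to 1.14, limma adjusted p = 0.999). HF mice had 2.92, 2.84 and 3.97 RPKM and NF_Sugar mice 3.00, 4.19 and 2.68 RPKM, so that both groups overlapped NF, with log2 differences from NF of 0.15 ± 0.22 and 0.17 ± 0.22. Without HF_Sugar replicate 1, the library with the most Cxcr4, the difference from NF was 0.42.

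Ccr6, the Ccl20 receptor of B cells, Th17 cells and type 3 innate lymphoid cells near the follicle-associated epithelium, showed the largest ratio of means from few reads. It had 0.941, 0.612 and 0.969 RPKM in HF_Sugar mice (32 to 43 reads), against 0.253, 0.358 and 0.204 RPKM in NF mice (10 to 20 reads). HF mice had 0.516, 0.639 and 0.707 RPKM, and both high-fat groups lay wholly above NF. NF_Sugar mice had 1.02, 0.244 and 0.291 RPKM, so that replicate 1 held the highest Ccr6 of all 12 libraries while the other mice were at NF levels. The ratio of means was 3.09 for HF_Sugar, 2.28 for HF and 1.90 for NF_Sugar, each over NF. The log2 difference of HF_Sugar from NF was 0.50 ± 0.18 (interval 0.10 to 0.91, limma adjusted p = 0.999), and those of HF and NF_Sugar were 0.33 ± 0.18 and 0.22 ± 0.18 (adjusted p = 1 in both). Without NF_Sugar replicate 1, the last difference was -0.02. As Ccr6 reached 0.5 RPKM in no NF library, it passed the filter only through the other groups, and these tests are no support for a difference.

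**Figure D2:**
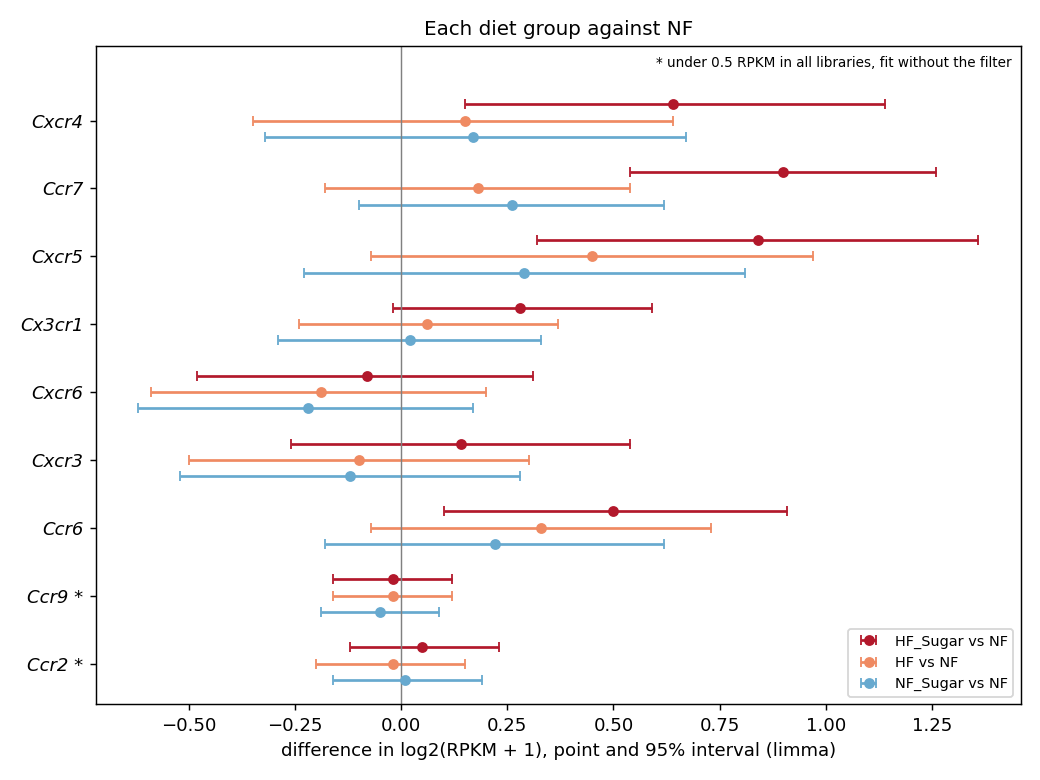
Difference of HF_Sugar, HF and NF_Sugar from NF in log2(RPKM + 1) (horizontal axis) for each receptor (vertical axis), with the limma estimate as a point and its 95% interval as a bar. Intervals of HF_Sugar lie above 0 for Ccr7, Cxcr5, Cxcr4 and Ccr6, and no adjusted p over all genes was under 0.05. Ccr6 passed the filter only through libraries outside NF.

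The other 5 receptors overlapped between HF_Sugar and NF. Cx3cr1 had 1.5, 1.07 and 1.74 RPKM in HF_Sugar mice and 0.627, 1.11 and 1.19 RPKM in NF mice, a ratio of means of 1.48 and a log2 difference of 0.28 ± 0.14 (interval -0.02 to 0.59, limma adjusted p = 0.999). Without NF replicate 1, the lowest mouse, the Cx3cr1 difference was 0.17. HF mice had 0.836, 1.2 and 1.17 RPKM and NF_Sugar mice 1.01, 0.791 and 1.18 RPKM, both overlapping NF. Cxcr3, the receptor of Th1 and cytotoxic T cells for interferon-induced chemokines, had 0.923, 1.08 and 0.816 RPKM in HF_Sugar mice and 0.341, 0.945 and 1.03 RPKM in NF mice. NF replicate 1 was far below its group, and the other NF mice were at HF_Sugar levels. The log2 difference of Cxcr3 was 0.14 ± 0.18 (interval -0.26 to 0.54, adjusted p = 0.999 by limma), and HF (0.387, 0.615 and 0.943 RPKM) and NF_Sugar (0.340, 0.687 and 0.833 RPKM) lay 0.10 and 0.12 below NF with intervals of -0.50 to 0.30 and -0.52 to 0.28.

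Cxcr6, found on T cells and innate lymphoid cells that stay in mucosa, was the tested receptor with estimates below 0 for all 3 diets against NF. It had 0.920, 0.756 and 1.30 RPKM in HF_Sugar mice, against 0.518, 1.32 and 1.52 RPKM in NF mice, and a log2 difference of -0.08 ± 0.18 (interval -0.48 to 0.31, limma adjusted p = 0.999). The differences of HF and NF_Sugar from NF were -0.19 ± 0.18 and -0.22 ± 0.18, and NF replicate 1 had the lowest Cxcr6 of all 12 libraries. Ccr9 had 0.305, 0.222 and 0.344 RPKM in HF_Sugar mice and 0.197, 0.301 and 0.419 RPKM in NF mice. Ccr2 had 0.158, 0.173 and 0.4 RPKM in HF_Sugar mice (24 to 44 reads) and 0.0721, 0.204 and 0.3 RPKM in NF mice (19 to 49 reads). In a fit without the filter on low values, HF_Sugar minus NF was -0.02 ± 0.06 for Ccr9 and 0.05 ± 0.08 for Ccr2 on the log2 scale, with intervals of -0.16 to 0.12 and -0.12 to 0.23.

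No receptor passed the limma threshold in any comparison. The share of all genes called was 0.0% for HF_Sugar against NF (0 of 17662 genes, with 417 higher and 301 lower at an unadjusted p under 0.05), and likewise 0.0% for HF against NF, for NF_Sugar against NF and for the interaction. It was 0.00566% (1 gene, the cytokine Il1b) for HF_Sugar against HF and 0.00566% for HF_Sugar against NF_Sugar (Il1b again). A fit with the replicate number as a block called 0 genes in either, and most alternatives lost the call against NF_Sugar. The number of genes called changed in 20 of 25 alternatives against HF and in 23 of 25 against NF_Sugar. Of the 7 tested receptors, 6 had an estimate above 0 in HF_Sugar against NF, with a median log2 difference of 0.50, beside 49.6% of all tested genes above 0 and a median of 0.00. In HF and in NF_Sugar against NF, 5 of 7 estimates were above 0, with medians of 0.15 and 0.18, beside 50.9% and 47.7% of all genes. In HF_Sugar against HF and against NF_Sugar, 7 of 7 were above 0, with medians of 0.24 and 0.28, beside 49.0% and 51.9% of genes. The 5 comparisons share libraries and are not independent of each other. These counts include Ccr6, which reached 0.5 RPKM in no NF library, and serve as a description.

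Counting receptors whose 3 values in 1 group lay wholly above those of another described the spread without a model. Of the 7 tested receptors, 4 (Ccr7, Cxcr5, Cxcr4 and Ccr6) were wholly above NF in HF_Sugar, beside 7.21% of all tested genes. With scaled RPKM it was 3, since Cxcr4 then overlapped, beside 6.37% of genes. In HF against NF there were 2 (Cxcr5 and Ccr6), beside 5.37% of genes, and in NF_Sugar against NF there was 1 (Ccr7), beside 3.22%, which overlapped after scaling. Ccr6 reached 0.5 RPKM in no NF library and was tested only through the other groups, so its place in the counts against NF is no support for a difference. In HF_Sugar against HF and against NF_Sugar Ccr7 alone of the 7 was wholly above, beside 4.69% and 4.29% of genes. Leaving out the receptors with fractions of a read, the counts were 2 (Cxcr5 and Ccr6) for HF_Sugar against NF and 0 for HF_Sugar against HF or NF_Sugar. Of these 2, Ccr6 gave whole reads, while Cxcr5 could not be checked for fractions. No tested receptor was wholly below in any pair, where 2.97% of genes were in HF_Sugar against NF, 2.97% in HF against NF, 2.64% in NF_Sugar against NF, 5.15% in HF_Sugar against HF and 1.64% in HF_Sugar against NF_Sugar.

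**Figure D3:**
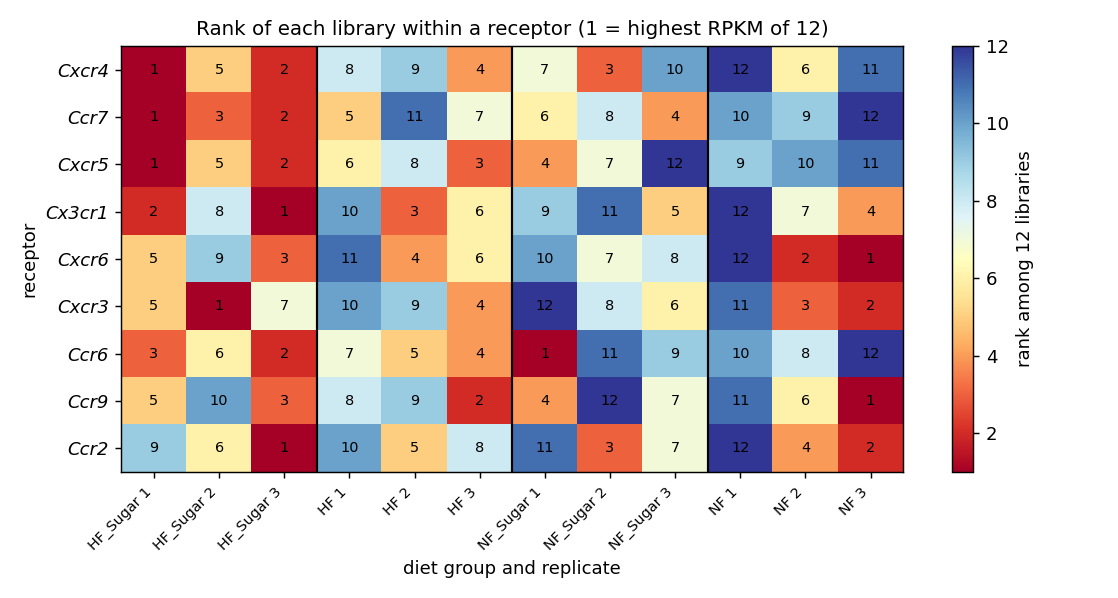
Rank of the 12 libraries (columns, by diet group and replicate) within each receptor (rows, by mean level), where 1 in red is the highest RPKM and 12 in blue the lowest. HF_Sugar replicate 3 ranks among the top 3 for 8 receptors and NF replicate 1 among the bottom 3 for 8.

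Individual mice weighed on many receptors at once. HF_Sugar replicate 3 was among the 3 highest libraries for 8 of the 9 receptors and HF_Sugar replicate 1 for 5, whereas HF_Sugar replicate 2, a library set apart on principal component 1, was so for 2. NF replicate 1 was among the 3 lowest for 8 receptors. NF replicate 3 was split, among the 3 highest for 4 (Cxcr6, Ccr9, Cxcr3 and Ccr2) and among the 3 lowest for 4 (Ccr7, Cxcr5, Cxcr4 and Ccr6). The sum over the 9 receptors was 20.3, 12.2 and 18 RPKM in HF_Sugar mice and 7.33, 10.1 and 9.69 RPKM in NF mice. Without the 4 libraries set apart, the log2 differences of HF_Sugar from NF were 1.06 for Ccr7, 1.06 for Cxcr5, 0.98 for Cxcr4 and 0.64 for Ccr6, with limma adjusted p of 0.458 to 0.48. Over all alternatives for HF_Sugar against NF the adjusted p of Ccr7 ran from 0.151 to 1.0, that of Cxcr5 and Cxcr4 from 0.48 to 1.0 and that of Ccr6 from 0.458 to 1.0. Cxcr6 then changed sign, to 0.11.

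The receptors formed 2 loose groups across the 12 libraries. On scaled log2 values, the Pearson r of Cxcr5 was 0.85 with Cxcr4, 0.84 with Ccr6 and 0.75 with Ccr7, and that of Ccr7 with Cxcr4 was 0.80. Within diet groups, after removing group means, these were 0.74, 0.68, 0.41 and 0.53. Ccr6 ran less closely with Ccr7 (0.67, within groups 0.39) and with Cxcr4 (0.59, within groups 0.30). A second group held Cx3cr1, Cxcr6, Cxcr3 and Ccr2, with r of 0.61 for Cx3cr1 with Cxcr6, 0.59 for Cxcr3 with Cxcr6 and 0.65 for Ccr2 with Cxcr6 (within groups 0.82, 0.57 and 0.72). Its pairs without Cxcr6 were lower, at 0.54 for Cx3cr1 with Cxcr3, 0.42 for Cx3cr1 with Ccr2 and 0.37 for Cxcr3 with Ccr2. Within groups these were 0.43, 0.35 and 0.30. Cx3cr1 also ran with the first group (r = 0.61 with Ccr7, 0.63 with Ccr6), though less so within diet groups (0.15 and 0.44). Cxcr6 with Cxcr5 (-0.10) and Ccr2 with Ccr7 (0.01) were among the pairs near 0. Ccr9 was closest to Cxcr6 (0.59) and Cx3cr1 (0.57) of the second group, with 0.56 and 0.77 within diet groups. It was lower with the other receptors of that group, Cxcr3 (0.28) and Ccr2 (0.17). These are descriptions over 12 libraries that share diet groups and tissue composition.

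The genes whose values ran most like a receptor over the 12 libraries differed between the groups. For Cxcr5 they were Bcl11a (r = 0.953), Rptoros (0.949) and the B cell factor Pax5 (0.932), and for Ccr6 they included H2-Ob (0.940) and Cd22 (0.913). For Cxcr4 they were Hs3st3b1 (0.947), Tra2b (0.917) and Ebi3 (0.916), and for Cx3cr1 Tlr12 (0.963), Myo1f (0.955) and Ciita (0.948). For Cxcr3 they were the MHC class II genes Cd74 (0.904) and H2-Ab1 (0.882) and the cytotoxic granule gene Nkg7 (0.883), and for Cxcr6 Selplg (0.871), Scarb1 (0.861) and Ptpn7 (0.853). Ccr9 ran most like Pstpip1 (0.882), Tcrg-C3 (0.866) and Bmp8a (0.845), and Ccr2 most like Tceal8 (0.880), Gsdmc2 (0.854) and Gsdmc3 (0.845). The genes most like Ccr7 were Cxcl10 (0.866), Ifng (0.845) and Xaf1 (0.843). The Spearman rho of Ccr7 with Ifng was 0.51, below its Pearson r, and Ifng averaged 0.678 RPKM in HF_Sugar and 0.0538 RPKM in NF. Ifng passed the filter only through its HF_Sugar libraries (0.528 to 0.773 RPKM, at most 0.191 RPKM elsewhere). Its likeness to Ccr7 and its group means are therefore no support for a difference.

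Markers of B cells were measured beside the first group of receptors. The 9 B cell markers, among them Ms4a1, all had estimates above 0 in HF_Sugar against NF (median log2 difference 0.46, 0 of 9 called by limma) and in HF against NF (median 0.37, 0 called). In HF_Sugar against HF, 7 of 9 were above 0 and 2 below, with a median of 0.09 (0 called). Their summed level was 37.4 to 67.5 RPKM in HF_Sugar and 32.6 to 37.7 RPKM in NF. The 6 pan-leukocyte markers, headed by Ptprc and Coro1a, summed to 37.8 to 79.6 RPKM in HF_Sugar and 38.8 to 61.4 RPKM in NF, and all 6 had estimates above 0 (median 0.28, 0 called). The T cell markers, headed by Cd3e and Cd3d, summed to 10.0 to 15.5 RPKM in HF_Sugar and 7.25 to 14.1 RPKM in NF, with 3 of 8 tested markers above 0 (median -0.08, 0 called). Follicle and germinal centre markers, headed by Cr2 and Fcer2a, summed to 11.1 to 19.6 RPKM in HF_Sugar and 8.99 to 12.2 RPKM in NF, with 5 of 5 tested above 0 (median 0.29, 0 called). Macrophage and monocyte markers, headed by Adgre1 and Csf1r, summed to 138 to 280 RPKM in HF_Sugar and 135 to 209 RPKM in NF, with 8 of 9 tested above 0 (median 0.16, 0 called). Smooth muscle markers, headed by Acta2 and Myh11, went the other way in estimate, with 0 of 6 above 0 (median -0.28, 0 called). Set against HF instead, HF_Sugar had estimates above 0 for 6 of 6 pan-leukocyte (median 0.31) and 8 of 8 T cell markers (0.16). Macrophage and monocyte markers then had 8 of 9 above 0 (median 0.21), and follicle and germinal centre markers 3 of 5 (0.02). Smooth muscle markers had 2 of 6 (median -0.03), and 0 were called in any of these. In these lists 0 markers were at 0 in all libraries, and the part of cell composition in the receptor values was not tested beyond the ratios that follow.

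Relative to the B cell sum of the same library, Ccr7 was 7.09%, 7.93% and 6.02% in HF_Sugar and 4.12%, 4.74% and 3.50% in NF, a ratio of means of 1.70 with no overlap. This measure was chosen after the data were seen. The HF mice were at 4.0%, 3.51% and 3.22%, but NF_Sugar replicate 3 stood at 8.08%, above every HF_Sugar mouse. Cxcr5 was 5.58%, 5.74% and 6.24% in HF_Sugar and 3.79%, 4.02% and 2.74% in NF, a ratio of 1.67, and Ccr6 had a ratio of 2.01, both with no overlap. The corresponding ratio of Cxcr4 was 1.21, and its groups overlapped. For each of these ratios without overlap the exact permutation test gave p = 0.1, the smallest possible. Over the pan-leukocyte sum the ratios were 2.03 for Ccr7, 1.95 for Cxcr5, 1.45 for Cxcr4 and 2.40 for Ccr6, none with overlap. Over the T cell sum they were 2.2, 2.10, 1.63 and 2.63 in the same order, with overlap for Cxcr4, and Cx3cr1 had ratios of 1.35 over the T cell sum with no overlap, 0.98 over the B cell sum and 1.22 over the pan-leukocyte sum, both with overlap. Cxcr3 and Cxcr6 had ratios over the B cell sum of 0.861 and 0.594, with overlap in both. In HF against NF over the pan-leukocyte sum, Cxcr5 and Ccr6 also had no overlap (ratios 1.67 and 2.30), while Ccr7 and Cxcr4 overlapped. Ccr7, Cxcr5, Cxcr4 and Ccr6 were already known not to overlap between HF_Sugar and NF in RPKM. The share of all genes without overlap was not counted for such ratios, so they serve as a description.

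**Figure D4:**
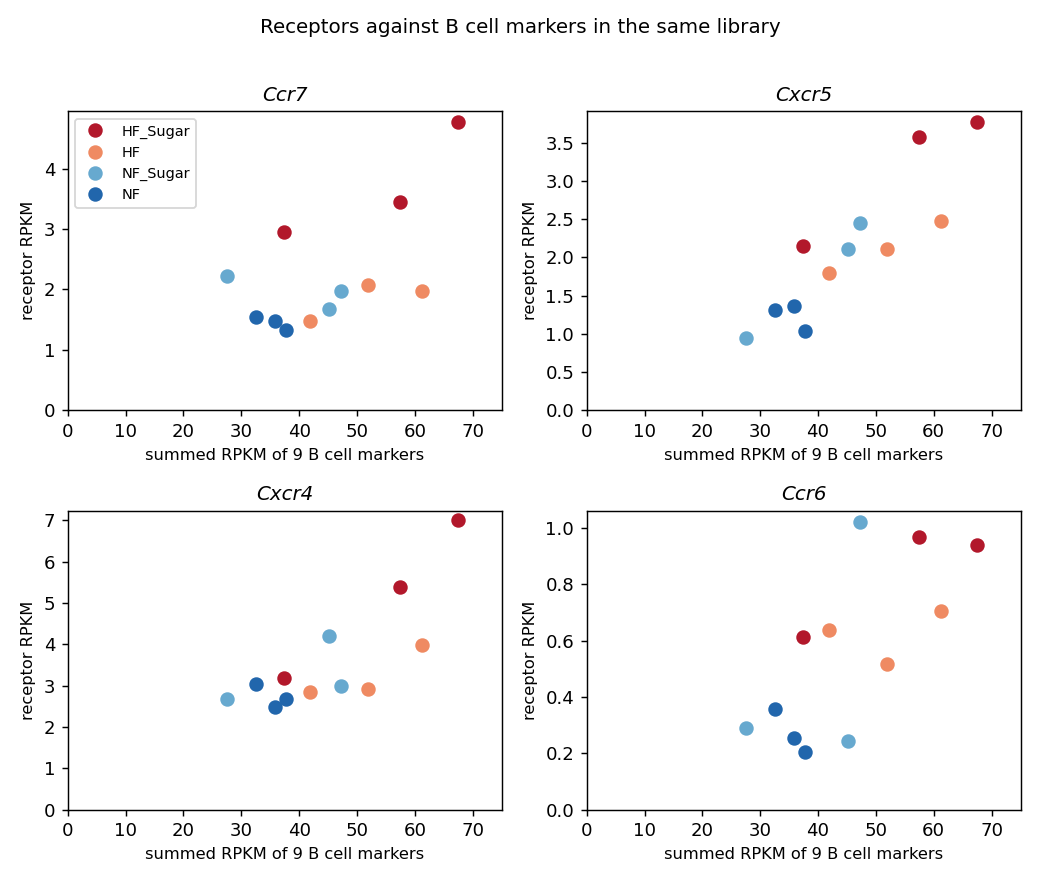
RPKM of 4 receptors (vertical axes) against the summed RPKM of 9 B cell markers (horizontal axes), where each point is a library, colored by diet group. HF_Sugar replicate 2, with a B cell sum of 37.4 RPKM, has 2.96 RPKM of Ccr7, while HF replicate 3, with a sum of 61.3 RPKM, has 1.98 RPKM.

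The ligands of these receptors were measured in the same libraries. Of 15 ligand genes measured, 14 passed the filter, and 0 were called by limma in HF_Sugar against NF, 10 with estimates above 0 and 4 below (median 0.15). Ligands of the lymphoid receptors differed little. For Ccr7, Ccl19 averaged 1.46 ± 0.663 RPKM in HF_Sugar and 1.2 ± 0.181 RPKM in NF, Ccl21a 17.7 ± 5.93 and 17.0 ± 2.3 RPKM, and Ccl21b 4.45 ± 2.12 and 3.95 ± 1.32 RPKM in the same order (SD, n = 3 each), where Ccl21a and Ccl21b are near-identical copies whose reads are uncertain. The fitted log2 difference of Ccl21a was -0.04, opposite in sign to its means. For Cxcr5, Cxcl13 averaged 4.09 ± 1.05 RPKM in HF_Sugar and 3.60 ± 0.477 RPKM in NF, and for Cxcr4, Cxcl12 averaged 1.95 ± 0.655 and 1.43 ± 0.133 RPKM. All had limma adjusted p of 0.999.

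The ligands described next are known products of epithelium, and Ccl25 and Cx3cl1 were the most abundant of all ligands measured. Ccl25, the epithelial ligand of Ccr9, averaged 42.2 ± 7.55 RPKM in HF_Sugar and 46.4 ± 7.78 RPKM in NF, far above the level of its receptor. Cx3cl1, the ligand of Cx3cr1, averaged 46.2 ± 1.35 RPKM in HF_Sugar and 39.2 ± 1.57 RPKM in NF, with no overlap (45.2 to 47.8 RPKM against 38.0 to 41.0 RPKM) and a log2 difference of 0.19 that did not pass (limma adjusted p = 0.999). Of all tested genes, 7.21% were wholly above NF in HF_Sugar. Cxcl16, that of Cxcr6, averaged 8.89 ± 2.75 RPKM in HF_Sugar and 9.66 ± 0.823 RPKM in NF. Ccl20, made by follicle-associated epithelium for Ccr6, had 1.87, 0.899 and 5.49 RPKM in HF_Sugar mice and 0.831, 2.38 and 1.31 RPKM in NF mice, so that 1 library carried its mean.

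Ligands of the inflammatory receptors had both large and small differences, and 0 were called. Cxcl10, an interferon-induced ligand of Cxcr3, had 3.83, 2.28 and 4.01 RPKM in HF_Sugar mice, against 0.376, 1.07 and 0.901 RPKM in NF mice. The groups did not overlap, beside 7.21% of all tested genes wholly above NF, and the log2 difference was 1.27 ± 0.18 (limma adjusted p = 0.196). In HF_Sugar replicates 1 and 2 its value was 194.41 and 140.68 reads, again not whole, and it was whole within 0.1 read in the other libraries. Ccl2, the monocyte attractant that binds Ccr2, had 1.95, 1.93 and 1.13 RPKM in HF_Sugar mice, against 0.0676, 0.0958 and 0.364 RPKM in NF mice, or 21 to 60 reads against 3 to 10 reads, all whole. Its log2 difference was 1.18 ± 0.18 (limma adjusted p = 0.196). Ccl2 passed the filter on low values only through its 3 HF_Sugar libraries, as no other library reached 0.5 RPKM, so its test is no support for a difference. Cxcl10 and Ccl2 passed the threshold when protein-coding genes alone were tested (limma adjusted p = 0.0245 for both), and over all alternatives their adjusted p ran from 0.0245 to 1.0. Cxcl9, another Cxcr3 ligand, had 2.49, 1.67 and 5.03 RPKM in HF_Sugar mice and 0.162, 1.77 and 0.975 RPKM in NF mice, with overlap and a log2 difference of 1.02, and Cxcl11 and Ccl12 had differences of -0.08 and 0.21 (all with adjusted p of 0.999). Ccl12 did not overlap (0.343 to 0.68 RPKM in HF_Sugar, 0.154 to 0.338 RPKM in NF). It passed the filter only through libraries of the sugar groups, so this is no support for a difference. In NF_Sugar, replicate 3 alone had a high Cxcl9 (4.54 RPKM, against 0.530 and 0.558 RPKM in the other mice).

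**Figure D5:**
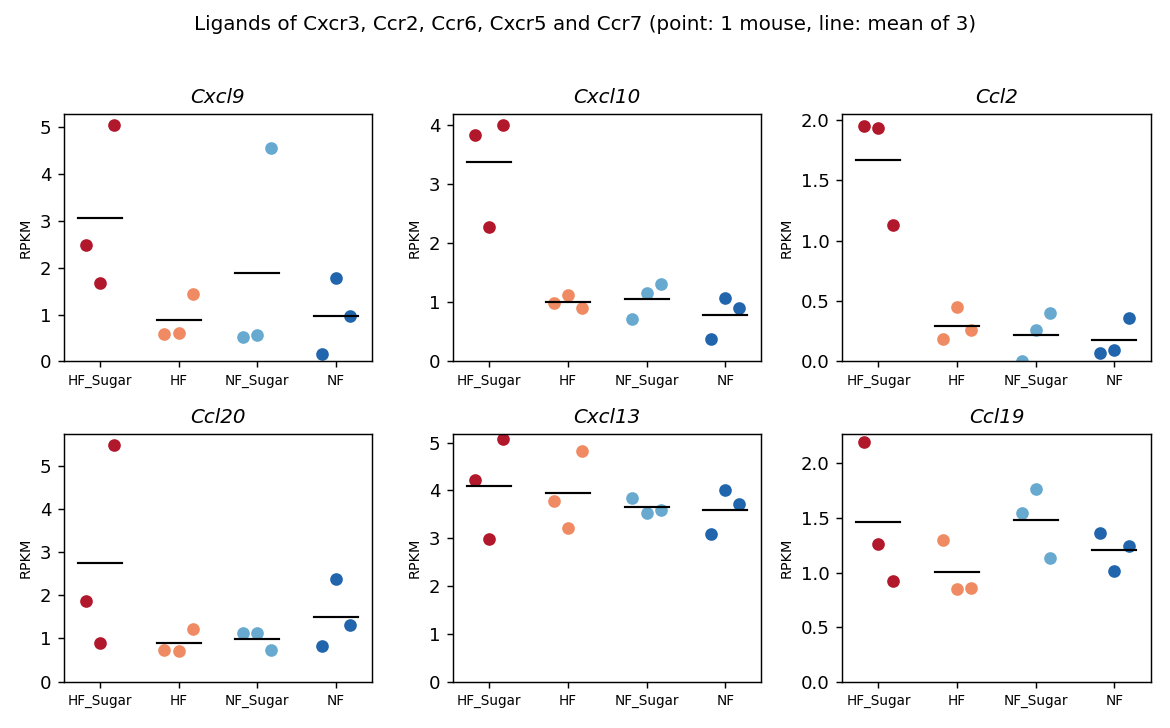
RPKM (vertical axes) of 6 ligands in 4 diet groups (horizontal axes), with 1 point per mouse and a line at the mean of 3. HF_Sugar values of Cxcl10 (2.28 to 4.01 RPKM) and Ccl2 (1.13 to 1.95 RPKM) lie above all values of the other groups, while Cxcl13 and Ccl19 overlap.

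The remaining chemokine receptors gave the setting for the 9. Of 8 other typical receptors in the table, Ccr1 and Ccr10 passed the filter and 0 were called. Ccr1, found on myeloid cells, averaged 1.46 ± 0.423 RPKM in HF_Sugar and 1.16 ± 0.145 RPKM in NF. Ccr10, found on IgA plasma cells, averaged 1.68 ± 0.956 and 0.847 ± 0.336 RPKM, with log2 differences of 0.14 and 0.46 for the pair (limma adjusted p = 0.999). The atypical receptors Ackr1, Ackr3, Ackr4 and Ccrl2, which bind chemokines without the usual G protein signal, had log2 differences of 0.03, 0.17, -0.04 and 0.07, and 0 of 4 were called. Of 12 tested genes of receptor signaling, such as Gnai2 and Gnai3, 7 had estimates above 0 (median 0.05). Of 15 tested genes of leukocyte homing, such as the integrin chains Itga4 and Itgb7, 12 did (median 0.24), and 0 were called in either list.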

How the data were processed

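Total RNA of ileum from 12 mice (RNA isolated from each mouse) was the starting material, from which the paper describes isolating mRNA and depleting rRNA before sequencing. The authors deposited 1 table of RPKM values, made in Partek with reads aligned to mm10. The 12 single-sample files were identical to its columns. Rows with a bare number for a name (26 of 44231, at most 0.135% of a library) were left out. Reads were recovered from RPKM steps, with a tolerance of 0.1 read for a whole number. RPKM were scaled by trimmed means of ratios between libraries and tested as log2(RPKM + 1) in limma 3.58.1 (R 4.3.3) with 1 term per diet group over all 12 libraries (8 residual degrees of freedom), with Benjamini-Hochberg adjustment over 17662 genes that reached 0.5 RPKM in 3 or more libraries. A call was an adjusted p under 0.05. Exact permutation tests went through every split of 3 against 3 mice, and Spearman rho was computed with scipy 1.17.1. The scripts were tested on simulated data. Promoters came from RefSeq (7 of the 9 receptors matched, none for Ccr7 or Cxcr5), and positions from an annotation of GRCm38 (40607 genes matched).

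The members and gene lists were chosen with earlier results of these data known. Named genes were all receptors, their ligands and the other chemokine receptors past the filter, the first 2 genes of a marker list, and the 3 genes with the highest r to each receptor, without predicted genes and receptor segments. One gene that this rule names is not reported here. Tas1r3, Tcf7, Tnf, Ifng and Il1b were named after their values were seen. Replicate numbers were checked for pairing by the correlation of deviations from group means. All 3 pairs exceeded 0.1 for HF_Sugar with NF (0.19, 0.51 and 0.23) and with HF (0.49, 0.56 and 0.13). This was not so for HF with NF, NF_Sugar with NF or HF_Sugar with NF_Sugar, and HF with NF_Sugar was not computed. The values of 0.51 and 0.56 belong to replicate 2, which is a library set apart on principal component 1 in HF_Sugar, HF and NF. The labels do not say what a number stands for. Alternatives changed the scaling, pseudocount, filter, gene set, libraries and model.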

Additional observations from a re-analysis of the deposited data

How the results depend on the processing

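The 7 tested receptors gave 42 differences with 983 values under alternatives, of which 964 kept their direction and their side of the threshold, 0 gained or lost a call and 19 changed sign. Of 475 values for ligands and other receptors, 457 kept both, 16 changed sign, and Cxcl10 and Ccl2 passed with protein-coding genes alone, Ccl2 being tested only because its HF_Sugar libraries passed the filter. Without the libraries set apart, the sign changed for Cxcr6 in HF_Sugar against NF (0.11), Cxcr3 in HF against NF (0.02) and NF_Sugar against NF (0.12), Ccr6 in the interaction (0.22) and Ackr1 in HF_Sugar against NF (-0.03). The cause was not tested.

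Leaving out 1 mouse at a time, differences that changed sign ran as follows. In HF_Sugar against NF, Cxcr3 ran from -0.03 to 0.26, Cxcr6 from -0.29 to 0.05, Ackr1 from -0.14 to 0.23, Ackr4 from -0.32 to 0.12, Ccrl2 from -0.04 to 0.22, Ccl19 from -0.10 to 0.30, Ccl21a from -0.23 to 0.25, Ccl21b from -0.17 to 0.37, Ccl20 from -0.06 to 0.76, Cxcl11 from -0.13 to 0.01 and Cxcl16 from -0.41 to 0.04. In HF against NF, Cx3cr1 ran from -0.05 to 0.16 and Cxcr3 from -0.28 to 0.02. In NF_Sugar against NF, Cx3cr1 ran from -0.09 to 0.12 and Ccr6 from -0.02 to 0.35. Cxcr6 in HF_Sugar against HF ran from -0.02 to 0.23, and in the interaction Ccr6 ran from -0.18 to 0.20 and Cxcr5 from -0.18 to 0.29.

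The number of genes called by limma depended on the setting. For HF_Sugar against NF it was 5 without a filter, 4 with protein-coding genes alone and 0 to 1 without 1 mouse. HF and NF_Sugar, each set against NF, had 4 without a filter and 0 to 1 without 1 mouse, and the interaction had 0 to 1. For HF_Sugar against HF (1 gene) it was 2 with protein-coding genes, 0 to 2 without 1 mouse, and 0 with a pseudocount of 0.1 or 0.5, no filter, the libraries set apart left out or as a covariate, the compared groups alone, or 2-fold and an adjusted p of 0.01. For HF_Sugar against NF_Sugar (1 gene) it was 2 with protein-coding genes, 0 to 1 without 1 mouse, and 0 in those same settings, without scaling, with median-of-ratios scaling and without a mean trend. With the replicate number as a block, 0 genes were called in any comparison, and the block gave log2 differences for HF_Sugar against NF of 0.90 for Ccr7 (adjusted p = 0.784), 0.84 for Cxcr5, 0.64 for Cxcr4 and 0.50 for Ccr6 and changed no receptor's call. A filter at a mean of 1 RPKM left the lower receptors without a value. With 3 mice a group and 9 to 49 reads for Ccr6 and Ccr2, small differences were not detectable.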
